A study of Mus musculus with 2 samples.

Results

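Expression of 10 genes of the retinoblastoma (RB) pathway was followed across the cells of a mouse model of hepatocellular carcinoma in which the RB gene family is deleted. The genes were the RB family itself (Rb1, Rbl1, Rbl2), 3 E2F transcription factors (E2f1, E2f7, E2f8), the S-phase cyclin gene Ccne1 and 3 inhibitors of cyclin-dependent kinases (Cdkn2a, Cdkn2c, Cdkn1c). They were named by symbol, and all 10 were among the 31053 genes of both deposited matrices. The question was which cell classes carried the transcripts that are known to rise when the RB proteins are lost.

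RB proteins bind E2F factors at promoters and hold back the genes of S-phase entry until cyclin-dependent kinases phosphorylate them. E2F1 is an activator, whereas E2F7 and E2F8 are repressors that are themselves induced by E2F and limit its activity late in S phase. Cyclin E, made from Ccne1, drives the kinase CDK2 and is a classical E2F target. Cdkn2a encodes p16INK4A, an inhibitor of CDK4 and CDK6, and from an upstream promoter ARF, which acts on p53. Cdkn2c encodes p18INK4C, of the same inhibitor family, and Cdkn1c encodes p57KIP2, an imprinted inhibitor of cyclin-CDK complexes. Cells without functional RB commonly hold high p16INK4A.

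The cells came from the liver of Rb family triple knockout mice and were sorted for YFP, which marks cells in which Cre recombined floxed alleles. There was 1 library of early lesions, in which cells of 3 mice were pooled and cannot be assigned to a mouse, and 1 library of macroscopic lesions, for which the labels give no number of mice. Neither an age, a strain, the promoter driving Cre nor the deleted exons are stated in the labels, and cells were labelled untreated. No unrecombined or wild-type library was analysed here, and both stages come from the knockout mice, so no level without the deletion is available. No feature names YFP or Cre, and recombination could not be checked per cell on the counts.

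A barcode stands for 1 droplet, and a UMI for 1 captured RNA molecule. The early library held 3221 barcodes with 12637053 UMIs and the macroscopic library 256 barcodes with 7271368 UMIs. Barcodes with at least 1000 UMIs were kept, 2620 and 241, and 0 barcode sequences were shared. Each was gated on raw UMIs in a fixed order, as hepatocyte (Alb at least 0.5% of UMIs), duct (Krt19 and Krt7 together at least 2), Kupffer (Clec4f, Cd5l and Marco at least 3), other macrophage (Gpnmb and Mmp12 at least 3) or T cell (Cd3e and Trbc2 at least 2). The early library gave 67 hepatocyte-, 91 duct-, 1928 Kupffer-, 199 other macrophage- and 72 T cell-gated barcodes and 263 in no gate. The macroscopic library gave 103 hepatocyte-, 4 Kupffer-, 8 other macrophage- and 20 T cell-gated barcodes, 106 in no gate and 0 duct-gated of 241, which allows a share of up to 1.24%. The duct rule was met by 1 macroscopic barcode, which went to the hepatocyte gate by the fixed order. Median depth ran from 2552.5 UMIs in early Kupffer-gated to 15463 in early and 23459 in macroscopic hepatocyte-gated barcodes.

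The gates were checked by markers outside them. Of 8 such hepatocyte markers, 8 were detected in early hepatocyte-gated barcodes, with a summed level of 36655 CPM (UMIs of the genes per 1e6 UMIs of the summed barcodes) against 872 CPM in Kupffer-gated ones. The 8 duct markers summed to 36900 CPM in duct- and 8512 CPM in early hepatocyte-gated barcodes, and 10 early barcodes passed both gates. Alb itself, at 20367 CPM in early hepatocyte-gated barcodes, was at 2241 CPM in duct- and 225 CPM in Kupffer-gated ones, or 11% and 1.11% of that level. Of the Kupffer markers, the sum was 16618 CPM in Kupffer- and 150 CPM in early hepatocyte-gated barcodes, and T cell markers summed to 5145 CPM in T cell-gated and 0 in early hepatocyte-gated ones. Markers of other macrophages summed to 22582 CPM in Kupffer-gated barcodes, more than the Kupffer markers did, and to 71629 CPM in other macrophage-gated ones, where Kupffer markers summed to 6724 CPM. The other macrophage list is not specific, as it also summed to 11327 CPM in early hepatocyte- and 9210 CPM in duct-gated barcodes. The macrophage gates thus hold transcripts of both lists, which does not show how far their cells are mixed. The Alb shares describe how much of an abundant hepatocyte transcript is met outside the gate. In the macroscopic library, 58 of the 103 hepatocyte-gated barcodes and 54 of the 106 in no gate had under 0.05% of their UMIs from Malat1, a nuclear RNA. The early library held 10348 Xist UMIs and the macroscopic library 0, with 0 and 277 of the Y-linked Ddx3y, so stage and sex cannot be told apart. Each stage has 1 library, so there is no replicate check, no test and no p-value, and every interval below is a 95% interval for counting error only.

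E2F binds promoters through a short GC-rich element, and the proximal promoters of the members were searched for its letters on both strands of the 250 bases before the start. The letters were the sequence TTCCCGC, the variant TTGGCGC, the variant TTCGCGC and the variant TTGCCGC. RefSeq windows (GRCm38.p6) were found for 8 of the 10 members, which gave 10 windows. Any of these letters occurs in 7.89% of 32851 such windows of all genes. They were present in 5 members, Rbl1, E2f7, E2f8, Cdkn2a and Cdkn2c. E2f7 had 3 matches, at 223, 198 and 92 bases before the start. E2f7 and E2f8 are shown whole, because their transcripts followed each other across the classes. Matches are in capitals, and in E2f7 the capitals GCGGGAA and GCGCCAA are matches on the opposite strand. E2f7 lies at chr10:110745189-110745438 on the plus strand and E2f8 at chr7:48881597-48881846 on the minus strand.
E2f7: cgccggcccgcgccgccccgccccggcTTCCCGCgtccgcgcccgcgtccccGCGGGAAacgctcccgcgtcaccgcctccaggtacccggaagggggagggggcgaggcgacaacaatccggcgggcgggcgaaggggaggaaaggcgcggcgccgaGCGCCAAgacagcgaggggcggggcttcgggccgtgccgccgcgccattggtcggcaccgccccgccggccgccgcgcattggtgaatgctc
E2f8: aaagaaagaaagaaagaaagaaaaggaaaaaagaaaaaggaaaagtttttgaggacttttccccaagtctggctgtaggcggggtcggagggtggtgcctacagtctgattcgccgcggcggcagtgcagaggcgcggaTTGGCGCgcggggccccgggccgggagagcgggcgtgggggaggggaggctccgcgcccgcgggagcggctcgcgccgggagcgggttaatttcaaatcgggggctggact

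The other 3 matches are shown with the bases around them, since Cdkn2a and Cdkn2c are the inhibitors whose levels ran in opposite order over early hepatocyte-, duct- and Kupffer-gated barcodes. Cdkn2a has 2 promoters that share their 3' exons, and the match is in the window of the upstream one, 98 bases before its start, at chr4:89294699-89294728. The Cdkn2c match lies 25 bases before the start at chr4:109666763-109666792 and the Rbl1 match 17 bases before the start at chr2:157204535-157204564, all on the minus strand.
Cdkn2a: tctgggaagctTTCCCGCgcgactggggac
Cdkn2c: ggggcccggccTTCCCGCtcccgcggcgcc
Rbl1: caagaaggcgattTTCGCGCgctttgtcgc

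No match was found in the windows of Rbl2, E2f1 and Ccne1, in the downstream Cdkn2a window or in a second Cdkn2c window. The windows follow RefSeq's start sites. Those of E2f1 and Cdkn2c, with the Cdkn2c match, and the downstream one of Cdkn2a lie inside the GENCODE M21 gene models, and the upstream one of Cdkn2a and that of Ccne1 reach into them. A match is a run of letters, and its absence says nothing of E2F binding elsewhere. The 3' counts do not separate the Cdkn2a promoters, so its values below join p16INK4A and ARF transcripts.

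Of the RB family genes, Rb1 and Rbl2 were met in every early class, with 197 and 166 UMIs in Kupffer-gated barcodes, and Rbl1 was close to undetected. The 3' tags do not show whether a transcript carries the deletion. Rb1 (ENSMUSG00000022105, chromosome 14, 73183673 to 73325822, minus strand) had 19.5 CPM (12.1 to 29.8) in early hepatocyte-gated barcodes, from 21 UMIs in 16 of 67. Its other early classes lay between 13.0 CPM in duct- and 36.2 CPM in T cell-gated barcodes, with 28.6 CPM (24.8 to 32.9) in Kupffer-gated ones. Within these bounds lie the gene models Gm17233 and Mir687 on the same strand, whose reads cannot be told apart from Rb1 where they share exons. Gene models on the opposite strand overlap Rb1, Rbl1, Rbl2, E2f7, E2f8 and Cdkn1c, and none overlaps E2f1, Cdkn2a, Cdkn2c or Ccne1. In macroscopic hepatocyte-gated barcodes Rb1 was at 5.50 CPM (3.69 to 7.90). Of these 29 UMIs 28 lay in the 45 barcodes with Malat1 at or over the limit (7.23 CPM) and 1 in the other 58 (0.716 CPM).

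Rbl2 (p130; ENSMUSG00000031666, chromosome 8, 91070057 to 91123844, plus strand), the family member of resting cells, was highest in T cell-gated barcodes of both stages. It had 176 CPM (122 to 245) there in the early and 141 CPM (88.3 to 213) in the macroscopic library. Early levels elsewhere were 30.4 CPM in duct-, 24.1 CPM in Kupffer-, 20.2 CPM in other macrophage- and 11.2 CPM in hepatocyte-gated barcodes. T cell-gated barcodes stood 7.28-fold (4.88 to 10.6) above Kupffer-gated ones. Of 5 members measured there, Rbl2 was the 1 that was at least 2-fold higher, beside 22.3% of 8620 genes, and 3 were at least 2-fold lower, beside 23.6%. E2f1 and Cdkn2a had 0 T cell UMIs, at least 2.14-fold and 2.3-fold below Kupffer-gated barcodes against the limit of 3 counts. Cdkn2c, with 1 T cell UMI, had 5.17 CPM against 14.4 CPM, a ratio of 0.359 (0.00900 to 2.05).

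Rbl1 (p107; ENSMUSG00000027641, chromosome 2, 157145893 to 157204534, minus strand), which is normally made in cycling cells, was close to undetected. It had 4 UMIs in the early library, 3 in Kupffer-gated barcodes (0.436 CPM) and 1 in no gate, and 2 in macroscopic hepatocyte-gated barcodes (0.380 CPM). In early hepatocyte-gated barcodes 0 UMIs were counted, which allows up to 2.79 CPM at 3 counts. The 45 early hepatocyte-gated and 79 Kupffer-gated barcodes with the most cycling transcripts, described below, also held 0.

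**Figure D1:**
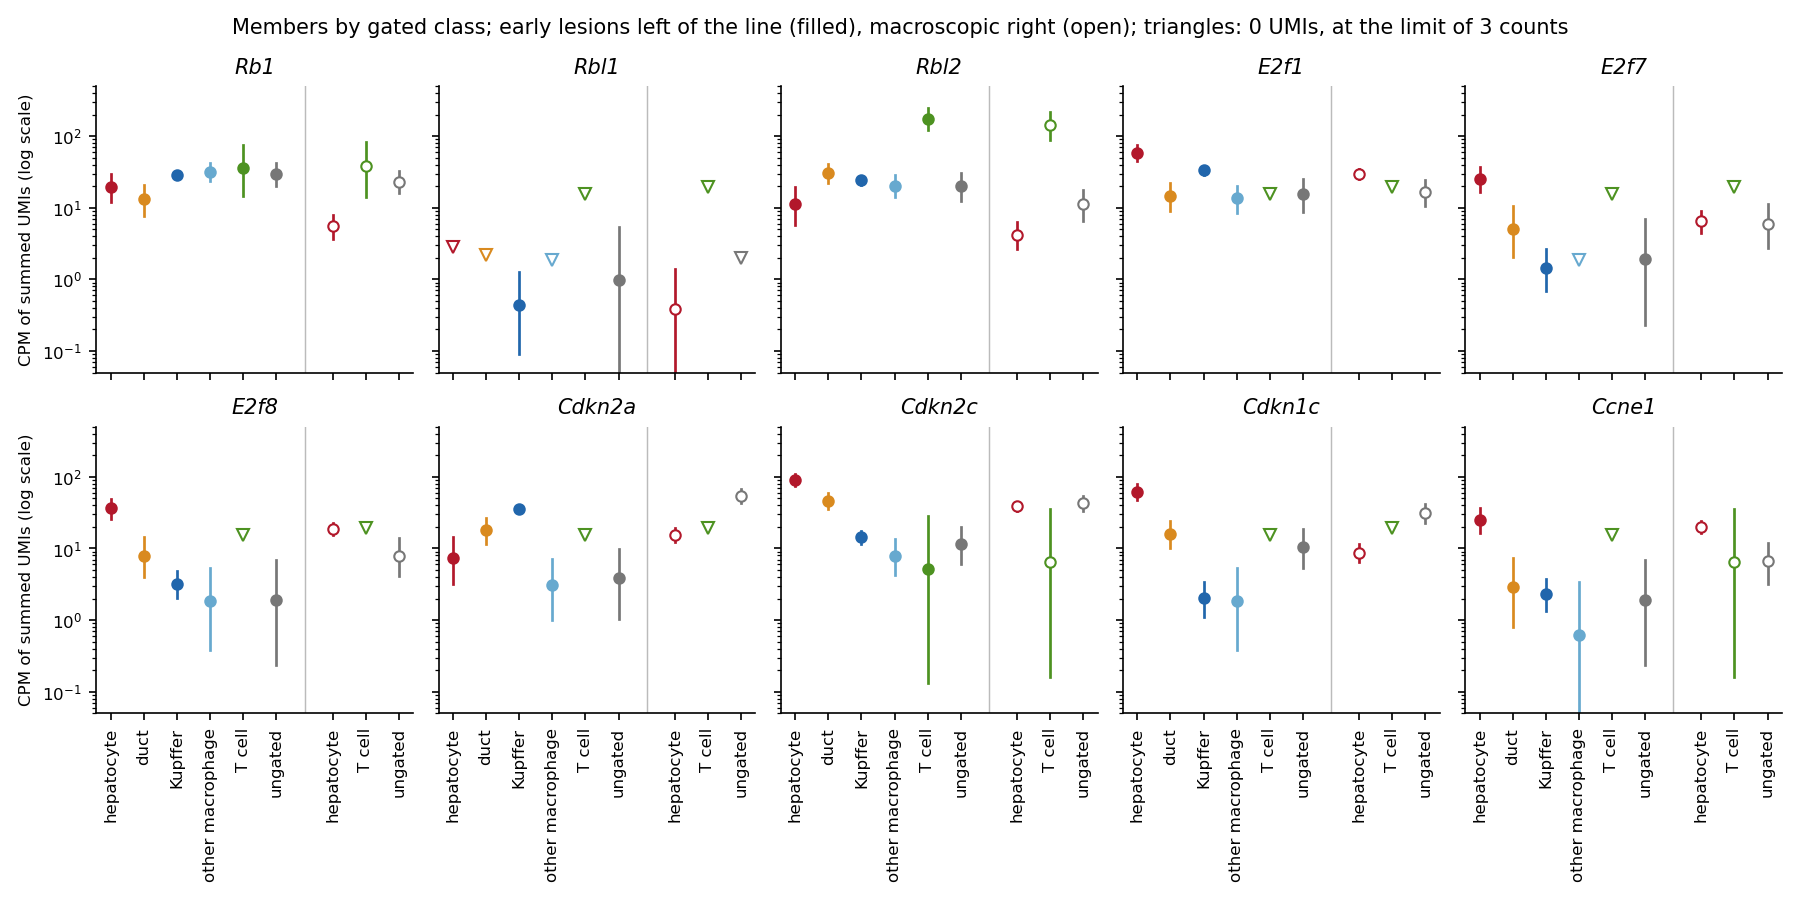
CPM of summed UMIs (log axis) of each member by gated class, with early lesions filled and macroscopic lesions open; bars are exact Poisson 95% intervals and open triangles mark 0 UMIs at the limit of 3 counts. E2f7, E2f8, Cdkn2c, Cdkn1c and Ccne1 are highest in hepatocyte-, then duct-, then Kupffer-gated early barcodes (with overlapping duct and Kupffer intervals for E2f7, E2f8 and Ccne1), among the early classes Cdkn2a is highest in Kupffer-gated barcodes at 35.6 CPM, and Rbl2 in T cell-gated ones at 176 CPM.

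Each of the E2F genes was highest in hepatocyte-gated barcodes among the early classes. The gap to Kupffer-gated barcodes was wide for E2f7 and E2f8 and narrow for E2f1. Over duct-gated barcodes the hepatocyte-gated ratios were alike, at 4.95 for E2f7, 4.55 for E2f8 and 4.04 (2.41 to 7.05) for E2f1. E2f8 (ENSMUSG00000046179, chromosome 7, 48866429 to 48881596, minus strand) had 36.2 CPM (25.8 to 49.5) in early hepatocyte-, 7.97 CPM in duct-, 3.20 CPM in Kupffer- and 1.84 CPM in other macrophage-gated barcodes. E2f7 (ENSMUSG00000020185, chromosome 10, 110745439 to 110787384, plus strand) followed the same order, at 25.1, 5.07, 1.45 and 0 CPM. The early hepatocyte level of E2f8 was 11.3-fold (6.56 to 20.1) and that of E2f7 17.3-fold (8.10 to 40) the Kupffer level. The intervals of Kupffer- and other macrophage-gated barcodes overlapped for E2f8.

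E2f1 (ENSMUSG00000027490, chromosome 2, 154559407 to 154569892, minus strand) had 58.5 CPM (45 to 74.9) in early hepatocyte- and 33.1 CPM (29.0 to 37.7) in Kupffer-gated barcodes. That is 1.77-fold (1.32 to 2.35). Duct-gated barcodes had 14.5 CPM and other macrophage-gated ones 13.5 CPM, 2.29-fold and 2.46-fold below Kupffer-gated barcodes, and their own intervals overlapped. E2f1 was met in 43.3% of hepatocyte- and 10.1% of Kupffer-gated barcodes, and in 0 of 72 T cell-gated ones, whose median depth of 2566.5 UMIs is close to that of Kupffer-gated barcodes. At an equal depth of 1000 UMIs the expected shares were 4.58% and 3.35%.

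Ccne1 (ENSMUSG00000002068, chromosome 7, 38097984 to 38107534, minus strand) had 25.1 CPM (16.5 to 36.5) in early hepatocyte-, 2.90 CPM in duct- and 2.32 CPM in Kupffer-gated barcodes. Its 27 hepatocyte UMIs came from 7 of 67 barcodes, and 5 of these held 88.9% of them. Without the richest barcode, which had 7 UMIs, the level was 18.9 CPM.

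The CDK inhibitors did not move as a group. Cdkn2c (ENSMUSG00000028551, chromosome 4, 109660876 to 109667189, minus strand) was highest in early hepatocyte-gated barcodes, at 91.1 CPM (73.9 to 111), then duct-gated ones at 46.4 CPM (35.7 to 59.2) and Kupffer-gated ones at 14.4 CPM (11.7 to 17.5), with no overlap between neighbours. Hepatocyte-gated barcodes stood 6.33-fold (4.74 to 8.46) and duct-gated ones 3.22-fold (2.32 to 4.46) above Kupffer-gated ones. Cdkn2c UMIs were met in 47.8% of hepatocyte-, 45.1% of duct- and 3.79% of Kupffer-gated barcodes. At an equal depth of 10000 UMIs, reached by 49, 60 and 82 barcodes, the expected shares were 46.9%, 37.0% and 16.9%.

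Cdkn1c (ENSMUSG00000037664, chromosome 7, 143458339 to 143461050, minus strand) had the widest gap of the measured members between early hepatocyte- and Kupffer-gated barcodes. It had 62.3 CPM (48.3 to 79.1) in early hepatocyte-, 15.9 CPM (9.99 to 24.1) in duct- and 2.03 CPM (1.11 to 3.41) in Kupffer-gated barcodes, a hepatocyte to Kupffer ratio of 30.6 (17.0 to 59.0). The Kupffer level was 3.27% of the hepatocyte level, and the part of free RNA in these 14 UMIs was not tested. UMIs were met in 33 of 67 hepatocyte-gated barcodes, in 11 of 1928 Kupffer-gated ones and in 0 of 72 T cell-gated ones.

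Cdkn2a (ENSMUSG00000044303, chromosome 4, 89274471 to 89294653, minus strand) went the other way. It had 35.6 CPM (31.3 to 40.3) in early Kupffer-gated barcodes, 18.1 CPM (11.7 to 26.8) in duct-gated ones, 7.43 CPM (3.21 to 14.6) in hepatocyte-gated ones and 3.06 CPM (0.994 to 7.14) in other macrophage-gated ones. Hepatocyte-gated barcodes were 4.79-fold (2.39 to 11.2) and other macrophage-gated ones 11.6-fold (4.92 to 36.1) below Kupffer-gated ones. Hepatocyte- and other macrophage-gated barcodes overlapped. The Kupffer-gated level was unevenly spread over barcodes, and those rich in Cdkn2a differed from the others in macrophage genes, as described below.

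Of the 10 members, 9 were measured between early hepatocyte- and Kupffer-gated barcodes (at least 10 CPM in one and 20 UMIs in all). Of these, 5 were at least 2-fold higher in hepatocyte-gated barcodes (Cdkn1c, E2f7, E2f8, Ccne1 and Cdkn2c) and 2 at least 2-fold lower (Cdkn2a and Rbl2, the latter 2.16-fold, 1.21 to 4.27). Over all 9777 measured genes 29.6% were higher and 22.5% lower. The members' median log2 ratio was 2.66, beside 0.23 over all measured genes. In duct- against Kupffer-gated barcodes 6 were measured, of which Cdkn1c and Cdkn2c were at least 2-fold higher and Rb1 and E2f1 lower, beside 38% and 15.4% of all genes. In other macrophage- against Kupffer-gated barcodes 5 were measured, of which E2f1 and Cdkn2a were lower and 0 higher, beside 20.3% and 6.64%. In hepatocyte- against duct-gated barcodes 9 were measured, of which E2f1, E2f7, E2f8, Cdkn1c and Ccne1 were higher and Rbl2 and Cdkn2a lower, beside 9.97% and 23.8%.

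Related genes of the pathway were compared in early hepatocyte- and Kupffer-gated barcodes. Of 35 E2F targets of the G1/S transition 32 were at least 2-fold higher in hepatocyte-gated barcodes and 0 lower, beside 29.6% and 22.5% of all measured genes, with a median log2 ratio of 2.42. Among barcodes with at least 3 UMIs of cycling genes, described below, 7 were higher and 2 lower. The share over all genes was not taken for those barcodes. Over barcodes of any cycling count the highest were the primase subunit Prim1 (27.9-fold), the ribonucleotide reductase subunit Rrm2 (20.7-fold) and thymidylate synthase Tyms (18.5-fold). The lowest were Mcm10 (1.95-fold), Cdt1 (1.82-fold) and Msh6 (1.67-fold). Of 6 measured subunits of the DREAM and MMB complexes, which bring RB-like proteins or B-MYB to cell cycle promoters, 4 were higher, Mybl2 (7.0-fold), Foxm1 (4.09-fold), Lin9 (3.05-fold) and Lin54 (2.79-fold). Lin37 was the lowest, at 1.5-fold (0.972 to 2.25). Of 9 measured E2F and DP factors 4 were higher, and beside E2f7 and E2f8 these were the dimer partner Tfdp2, at 2.89-fold, and E2f6, at 2.82-fold. E2f4, E2f5 and E2f3 stood at 1.59, 1.21 and 0.914. Of 6 measured CDK inhibitors 4 were higher, and beside Cdkn1c and Cdkn2c these were Cdkn1a (p21), at 6.91-fold, and Cdkn2d (p19INK4D), at 3.46-fold. Cdkn1b (p27) was at 1.12 (0.815 to 1.502).

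The G1 cyclins and their kinases did not move together. Ccne2 was 5.97-fold and Ccnd2 4.59-fold higher in hepatocyte-gated barcodes. Ccnd1 was 3.25-fold (2.27 to 4.82) and the kinase gene Cdk6 4.0-fold (1.90 to 10.1) lower, and Ccnd3 1.59-fold lower. Of the 9 genes 5 were at least 2-fold higher and 2 lower, beside 29.6% and 22.5% of all measured genes.

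Barcodes were divided by their UMIs of 10 genes of dividing cells (Mki67, Cenpf, Ccnb2, Cdk1, Birc5, Ube2c and 4 others), none of them a member. At least 3 such UMIs were found in 45 of 67 early hepatocyte-gated barcodes (67.2%), 10 of 91 duct-gated (11%), 79 of 1928 Kupffer-gated (4.10%), 1 of 199 other macrophage-gated and 0 of 72 T cell-gated ones. These shares depend on depth. The cut is a fixed number of UMIs, so a shallower barcode needs a larger share of cycling transcripts to pass it. Its effect on the ratios below was not tested. Cycling genes and members are both genes of the cell cycle, so the split is not independent of the members' levels. Within 5000 to 30000 UMIs the shares were 40 of 53 hepatocyte-gated (75.5%) and 42 of 387 Kupffer-gated barcodes (10.9%). The cycling barcodes of all depths had median depths of 18203 UMIs (hepatocyte), 18646 UMIs (duct) and 5366 UMIs (Kupffer).

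Between cycling hepatocyte- and cycling Kupffer-gated barcodes the gap in Cdkn2c closed. Cdkn2c had 105 CPM (84.6 to 128) in the first and 101 CPM (75.5 to 131) in the second, a ratio of 1.04 (0.738 to 1.49) where all barcodes gave 6.33. E2f1 had 71.0 CPM against 89.4 CPM, a ratio of 0.795 (0.537 to 1.18). E2f8 had 44.0 CPM against 37.2 CPM, a ratio of 1.18 (0.672 to 2.14) where all barcodes gave 11.3. Ccne1 had a ratio of 1.63 (0.767 to 3.78), from 27 and 10 UMIs, and E2f7 of 2.34 (0.992 to 6.35), from 27 and 7 UMIs. For these 5 genes the interval included 1, which leaves room for the differences those intervals span.

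The ratios were also taken in a narrower range of depth. Among cycling barcodes of 5000 to 30000 UMIs, 40 hepatocyte- and 42 Kupffer-gated with median depths of 17474.5 and 8037 UMIs, Cdkn2c had a ratio of 1.03 (0.661 to 1.62), E2f1 of 1.05 (0.661 to 1.69) and E2f8 of 1.48 (0.734 to 3.19). Mki67 had 350 CPM and 330 CPM in these barcodes. Alb was at 186 CPM in cycling Kupffer-gated barcodes and at 235 CPM in those with 0 cycling UMIs. Barcodes at or above the Alb limit had already gone to the hepatocyte gate, so both levels are capped by the gating. The part of hepatocyte RNA in the cycling transcripts of Kupffer-gated barcodes was not tested.

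Cdkn1c and Rbl2 still differed between cycling barcodes. Cdkn1c had 69.9 CPM (53.6 to 89.6) in the 45 hepatocyte- and 0 UMIs in the 79 Kupffer-gated barcodes, at least 12.5-fold higher against a limit of 3 counts. Rbl2 was lower in hepatocyte-gated barcodes, at 9.02 CPM against 37.2 CPM, a ratio of 0.242 (0.0923 to 0.574). For Cdkn2a and Rb1 the interval included 1. Cdkn2a had 9.02 CPM against 20.5 CPM, from 8 and 11 UMIs, a ratio of 0.440 (0.154 to 1.20), and Rb1 had a ratio of 0.575 (0.290 to 1.14).

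**Figure D2:**
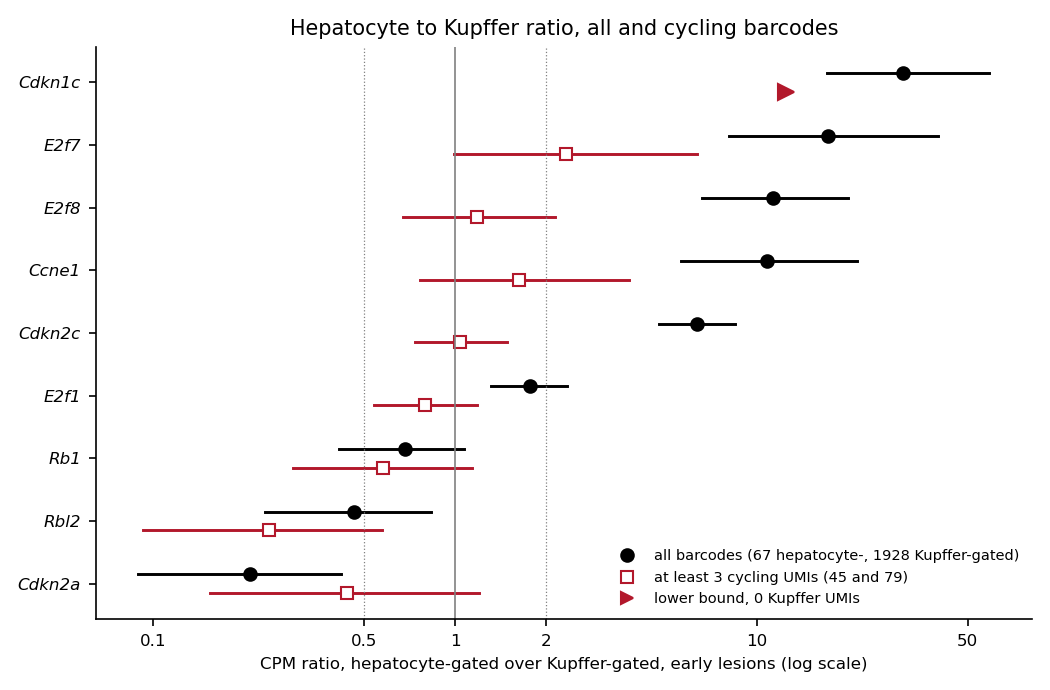
CPM ratio of hepatocyte- over Kupffer-gated early barcodes (log axis) for the 9 measured members, over all barcodes (black circles) and over barcodes with at least 3 cycling UMIs (open red squares), with exact 95% counting intervals; the red arrowhead for Cdkn1c is a lower bound of 12.5. The red intervals of E2f7, E2f8, Ccne1, Cdkn2c, E2f1, Cdkn2a and Rb1 reach 1, and that of Rbl2 does not.

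The same split by cycling UMIs was then made within single classes. In Kupffer-gated barcodes Cdkn2c had 6.64 CPM (4.65 to 9.19) with 0 cycling UMIs and 101 CPM with 3 or more, which is 15.2-fold (9.76 to 23.8). E2f8 had 0 UMIs and 37.2 CPM, at least 67.3-fold. Ccne1 had 0.922 CPM and 18.6 CPM, and E2f7 had 0.553 CPM and 13.0 CPM. E2f1 had 26.0 CPM and 89.4 CPM, 3.44-fold (2.42 to 4.80). Cdkn2a had 20.5 CPM in cycling Kupffer-gated barcodes and 37.6 CPM in those with 0 cycling UMIs, a ratio of 0.545 (0.268 to 0.995). Without the richest of the latter the ratio was 0.602 (0.295 to 1.10), and barcodes with a UMI were 9 of 79 (11.4%) and 102 of 1670 (6.11%), so no direction is read from it. Cdkn1c had 0 UMIs against 12. Within 5000 to 30000 UMIs (42 and 271 barcodes) the Cdkn2c ratio was 9.21 (5.11 to 17.1), that of E2f1 3.47 (2.13 to 5.59) and that of Cdkn2a 0.335 (0.141 to 0.681).

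In early hepatocyte-gated barcodes E2f1, E2f7, E2f8, Ccne1 and Cdkn2a were found only among the 45 cycling ones, with 63, 27, 39, 27 and 8 UMIs. The other 22 held 0 UMIs of each, which allows up to 15.9 CPM. Depth moved with this split, as the 16 with 0 cycling UMIs had a median of 7087.5 UMIs and the 45 a median of 18203, and its part was not tested. E2f1 was thus at least 4.47-fold, E2f8 at least 2.77-fold, and E2f7 and Ccne1 at least 1.92-fold higher in cycling ones, and the Cdkn2a count is too low to show a difference. Cdkn2c had 105 CPM against 26.5 CPM, 3.96-fold (1.64 to 12.5), and Cdkn1c 69.9 CPM against 26.5 CPM, 2.64-fold (1.07 to 8.42).

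**Figure D3:**
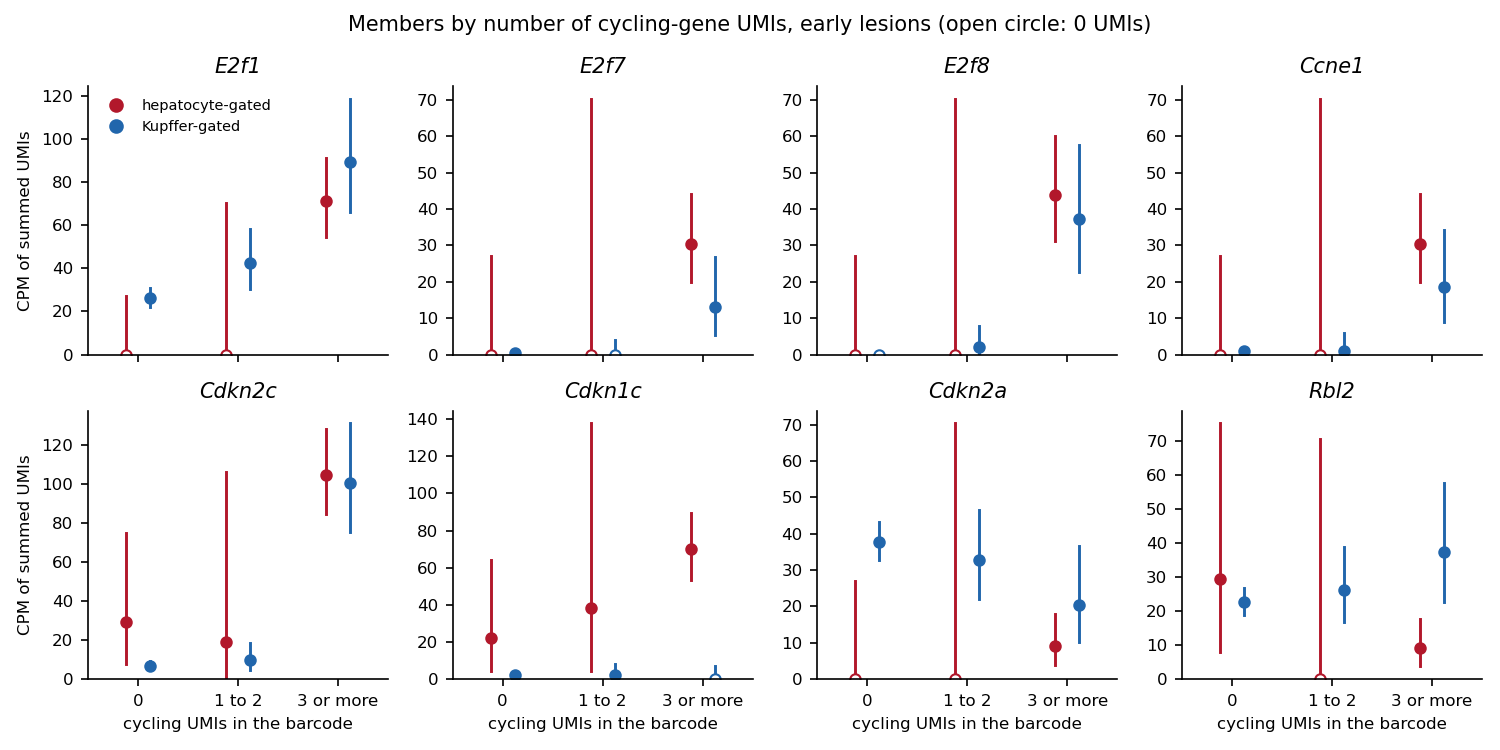
CPM of 8 members in early hepatocyte-gated (red) and Kupffer-gated (blue) barcodes by the number of cycling UMIs in the barcode, with exact Poisson 95% intervals; open circles mark 0 UMIs. E2f1, E2f7, E2f8, Ccne1 and Cdkn2c are highest at 3 or more cycling UMIs in both classes, whereas Cdkn1c stays near 0 in Kupffer-gated barcodes and Cdkn2a is at 37.6 CPM in those with 0 cycling UMIs.

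Duct-gated barcodes showed the split for Cdkn2a as well. Their 25 Cdkn2a UMIs included 24 in the 10 cycling barcodes, or 124 CPM (79.6 to 185), and 1 in the other 81, or 0.843 CPM. These 24 UMIs lay in 5 barcodes with 13, 4, 4, 2 and 1, and without the richest the level in the remaining 9 was 68.5 CPM. Over all duct-gated barcodes that left 8.91 CPM in place of 18.1 CPM. Cycling duct-gated barcodes also held E2f1 at 56.9 CPM, E2f8 at 56.9 CPM and E2f7 at 36.2 CPM, and E2f7 and E2f8 had 0 UMIs in the 81 others. Cdkn2c had 109 CPM (67.3 to 166) in cycling ones and 36.2 CPM (26.2 to 48.8) in the rest. Between cycling hepatocyte- and cycling duct-gated barcodes Cdkn2a had a ratio of 0.0726 (0.0282 to 0.167), whereas Cdkn2c had 0.964 (0.596 to 1.63) and E2f1 1.25 (0.652 to 2.62).

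The Kupffer-gated Cdkn2a transcripts were unevenly spread. The 245 UMIs lay in 120 of 1928 barcodes (6.22%), and 5 barcodes held 26.9% of them, with 20 UMIs in the richest. Without that barcode the level was 32.8 CPM. The next had 15 and 14 UMIs, and all 3 held 0 UMIs of Mki67 and at most 1 of Alb. Markers of other macrophages summed to 60540 CPM in the 25 barcodes with at least 3 Cdkn2a UMIs and 20832 CPM in the 1808 with 0, beside 71629 CPM in other macrophage-gated barcodes, and their part in the Cdkn2a level was not tested. The other macrophage gate itself had 3.06 CPM of Cdkn2a. In the 25 barcodes the leading genes, against the 1808, were the integrin gene Itga6, the lipoxygenase gene Alox15, the lubricin gene Prg4, Tgfb2 and the gene model AC168977.1, each found in 7 to 10 of the 25. Fibronectin (Fn1) had 6068 CPM against 256 CPM there. The lysozyme gene Lyz2 had 35369 CPM against 6927 CPM, and the Kupffer gene Clec4f 976 CPM against 3800 CPM, whereas Marco had 4815 CPM against 2958 CPM. These genes describe barcodes chosen by Cdkn2a, and no test was made of them. The Kupffer-gated Cdkn2a level is thus one of the gate, and which macrophages carried it was not tested.

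**Figure D4:**
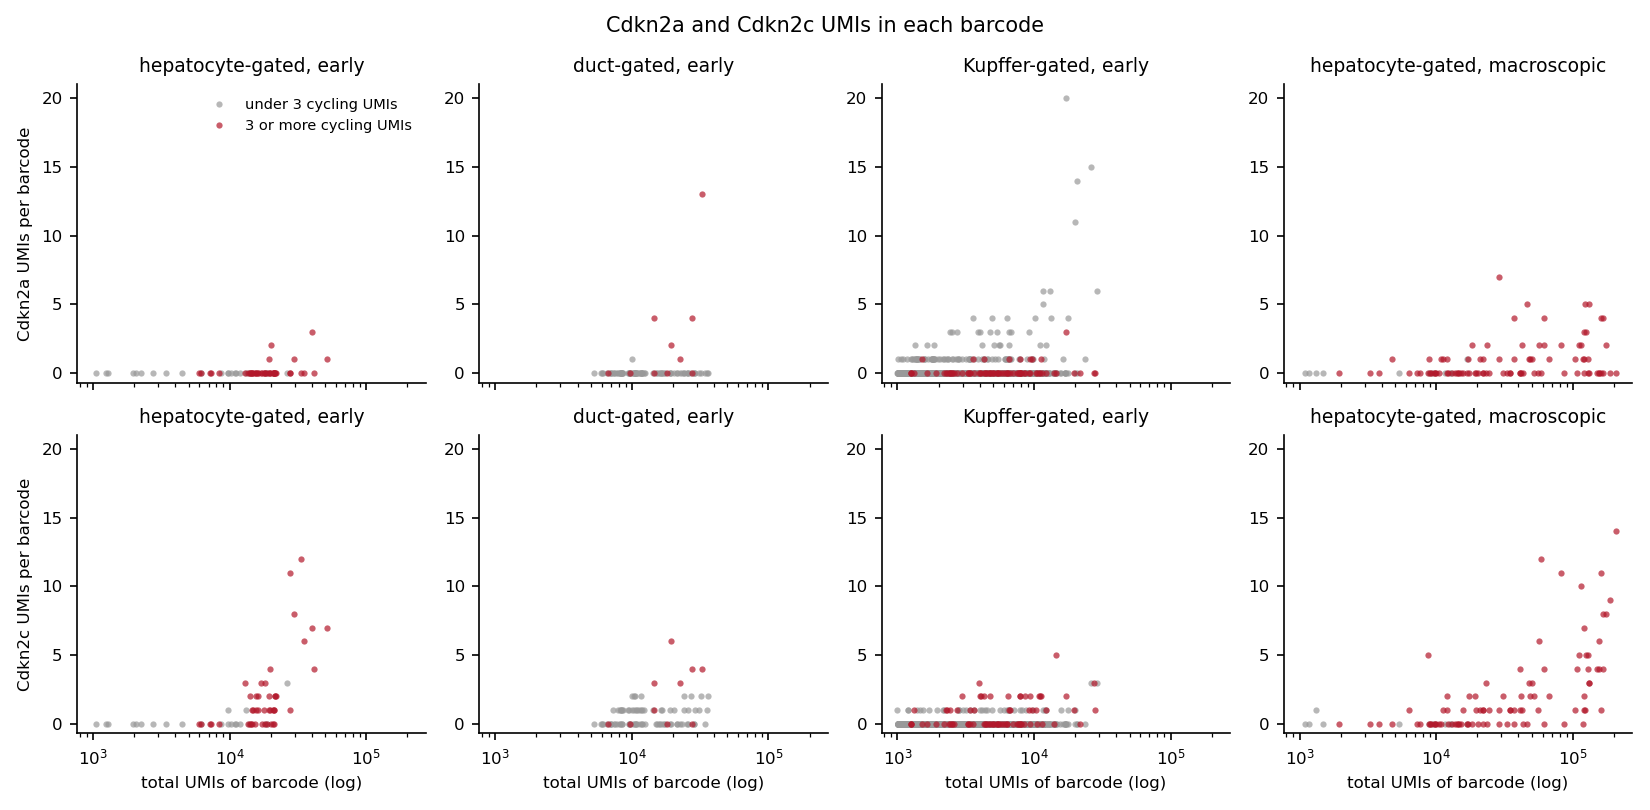
UMIs of Cdkn2a (top) and Cdkn2c (bottom) in each barcode against its total UMIs (log axis) for 3 early classes and macroscopic hepatocyte-gated barcodes, with barcodes of 3 or more cycling UMIs in red. The Kupffer-gated barcodes richest in Cdkn2a, up to 20 UMIs, are grey, and the duct-gated one with 13 UMIs is red.

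In macroscopic lesions Cdkn2a was met in 38 of 103 hepatocyte-gated barcodes (36.9%, 27.6 to 47.0), with 81 UMIs or 15.4 CPM (12.2 to 19.1), and at most 7 UMIs in 1 barcode. The 32 Kupffer-, other macrophage- and T cell-gated barcodes of that library held 0 Cdkn2a UMIs, so hepatocyte-gated ones were at least 2.42-fold higher against a limit of 3 counts. Median depths were 23459 UMIs and 8469.5 UMIs. Against the same 32, E2f8 was at least 2.96-fold higher (99 and 0 UMIs) and Cdkn2c 9.15-fold higher (2.50 to 76.0, from 204 and 2 UMIs), and E2f1 was at 1.01 (0.582 to 1.88). Rb1 had a ratio of 0.137 (0.0742 to 0.258) and Rbl2 of 0.0731 (0.0397 to 0.133). The 14 E2f1 UMIs of these immune barcodes lay in Kupffer- and other macrophage-gated ones, 7 in each, and 0 in T cell-gated ones. Of them 6 lay in 1 Kupffer-gated and 5 in 1 other macrophage-gated barcode, each with at least 3 cycling UMIs. The E2f1 ratio thus rests mostly on these barcodes, without which 1 and 2 UMIs were left.

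Barcodes in no gate changed this comparison. The 106 macroscopic ones held 83 Cdkn2a UMIs (54.7 CPM, 43.6 to 67.8), of which 40 lay in 1 barcode with 583 UMIs of the collagen gene Col3a1 and 182 of Dcn, fibroblast markers. A further 14 lay in 1 barcode with 43 UMIs of the endothelial gene Pecam1 and 32 of Mki67. Without the richest barcode the level was 29.1 CPM. For Cdkn1c, 27 of 47 UMIs lay in 1 barcode with 14 Pecam1 UMIs, and without it the level was 13.5 CPM in place of 31.0 CPM. Over all 138 other barcodes Cdkn2a and Cdkn1c were each 2.71-fold lower in hepatocyte-gated ones (1.97 to 3.73 and 1.76 to 4.15), and without the richest barcode of each group the log2 ratios were -0.64 and -0.38 in place of -1.44.

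In that comparison 8 members were measured, of which E2f8 (3.12-fold, 1.71 to 6.23) and Ccne1 (2.86-fold, 1.63 to 5.41) were higher in hepatocyte-gated barcodes, beside 18.4% of 9807 genes. Rb1 (4.93-fold, 3.08 to 8.03), Rbl2 (5.30-fold, 3.11 to 9.28), Cdkn2a and Cdkn1c were lower, beside 23.8%. With each barcode weighted equally 0 members were higher and 2 lower, and the share over all genes was not taken under that weighting. Cdkn2c was at 1.15 (0.869 to 1.54), and barcodes in no gate had 42.8 CPM against 38.7 CPM. Of the 106, 37 had at least 3 cycling UMIs, and of the 103 hepatocyte-gated barcodes 91 had (88.3%).

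Between the libraries of the 2 stages, macroscopic hepatocyte-gated barcodes had at least 2-fold less of 5 of the 9 measured genes and more of 1, beside 18.9% and 8.45% of 9057 genes. Cdkn1c had 8.73 CPM there against 62.3 CPM in early lesions, 7.13-fold lower (4.83 to 10.6). E2f7 was 3.89-fold (2.26 to 6.64), Rb1 3.55-fold (1.92 to 6.44), Rbl2 2.67-fold (1.20 to 5.64) and Cdkn2c 2.35-fold (1.83 to 3.01) lower. E2f1 was 1.97-fold (1.44 to 2.65) and E2f8 1.93-fold (1.3 to 2.82) lower, and Ccne1 was at 0.802 (0.521 to 1.27). Cdkn2a was higher, at 15.4 CPM against 7.43 CPM, 2.07-fold (1.0 to 4.95), on 8 early UMIs. The median log2 ratio of the 9 was -1.23 beside -0.29 over all genes. Between cycling hepatocyte-gated barcodes (91 and 45) Cdkn2c had a ratio of 0.374 (0.291 to 0.483), Cdkn1c of 0.127 (0.0849 to 0.189) and Cdkn2a of 1.71 (0.829 to 4.10).

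Low-Malat1 barcodes differed in several members within the macroscopic hepatocyte gate. Under the limit (58 barcodes) Cdkn2a was at 30.1 CPM (21.7 to 40.6) and at or over it (45 barcodes) at 10.1 CPM (7.16 to 13.8). Cdkn2c was at 50.8 CPM and 34.3 CPM. In contrast E2f8 was at 4.29 CPM and 24.0 CPM, E2f7 at 0 UMIs and 8.78 CPM, and Mki67 at 11.4 CPM and 148 CPM. E2f1 was at 27.9 CPM and 30.5 CPM, a ratio at or over against under the limit of 1.09 (0.754 to 1.61). Without low-Malat1 barcodes the number of members at least 2-fold higher in macroscopic than in early hepatocyte-gated barcodes was 0 in place of 1. Median depths were 17791 UMIs and 107248 UMIs, and the median mitochondrial share of UMIs was 0.220% and 7.59%. The part of depth, Malat1 and mitochondrial share in these values was not tested.

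**Figure D5:**
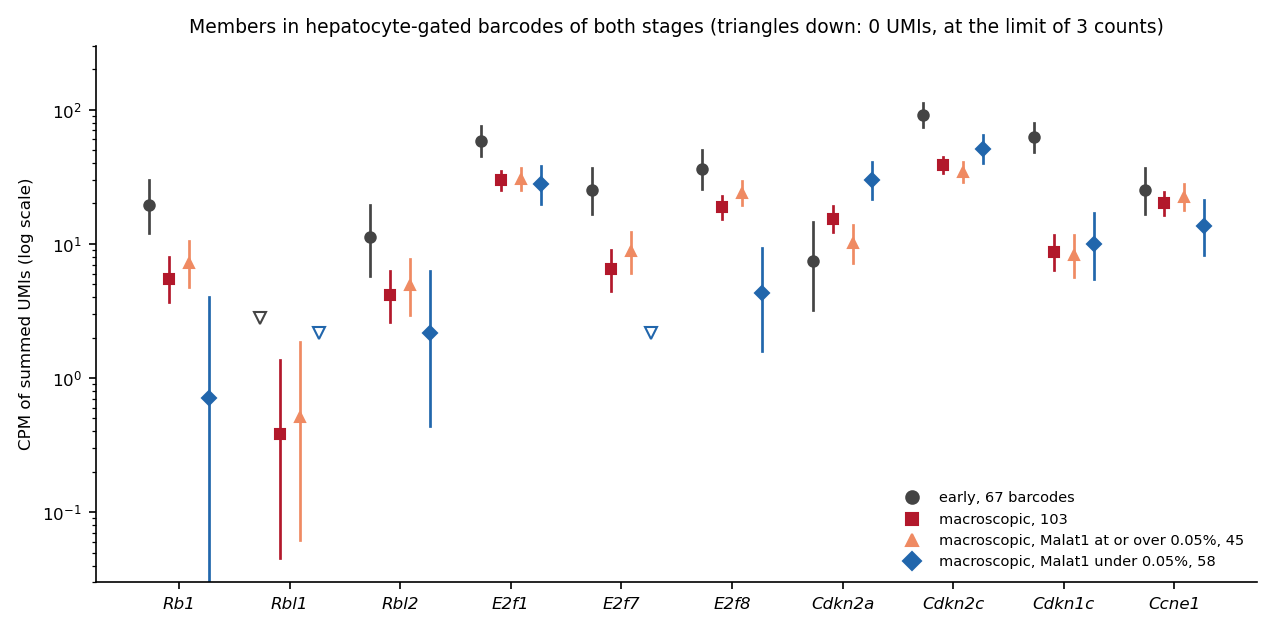
CPM (log axis) of each member in hepatocyte-gated barcodes of early lesions (67), macroscopic lesions (103) and the macroscopic barcodes with Malat1 at or over (45) and under (58) 0.05% of UMIs; bars are exact Poisson 95% intervals and open triangles mark 0 UMIs at the limit of 3 counts. Cdkn2a is highest in the low-Malat1 barcodes at 30.1 CPM, where Rb1, E2f7 and E2f8 are lowest.

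Among related genes, Cdkn1a was at 379 CPM in macroscopic and 273 CPM in early hepatocyte-gated barcodes, 1.39-fold (1.23 to 1.57), and Cdkn1b was at 47.8 CPM and 48.3 CPM. Of the D-type cyclins, Ccnd1 had 3 UMIs (0.569 CPM) against 28.8 CPM, a ratio of 0.0198 (0.00387 to 0.0633). Ccnd2 had 0 UMIs against 30.7 CPM, at least 53.9-fold lower. Ccnd3 had 29.2 CPM and 32.5 CPM. Cdkn2b, the neighbour of Cdkn2a on chromosome 4 and an inhibitor of the same kinases, had 13.3 CPM in macroscopic and 6.51 CPM in early hepatocyte-gated barcodes.

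Members were often met in the same hepatocyte-gated barcodes. In the early library, 20 barcodes held both E2f8 and Cdkn2c, which is 87.0% of the 23 with E2f8 and 62.5% of the 32 with Cdkn2c. All 5 barcodes with Cdkn2a held E2f8, 21.7% of the E2f8 barcodes. In the macroscopic library 29 held E2f8 and Cdkn2c, 90.6% of 32 and 50.9% of 57, and 13 held E2f8 and Cdkn2a, 40.6% of 32 and 34.2% of 38. In Kupffer-gated barcodes Cdkn2a and Cdkn2c met in 13, which is 10.8% of 120 and 17.8% of 73. Deeper barcodes show more genes of any kind. At least 5 of the 10 members were met in 16 of 67 early and 25 of 103 macroscopic hepatocyte-gated barcodes, in 5 of 91 duct-gated and in 2 of 1928 Kupffer-gated ones.

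The genes most like 3 of the members were sought over 9 class sums (Pearson's r of log2 of CPM plus 10, 12079 genes, as a description). For Cdkn2c they were Mnd1 (r = 0.992), Cenpe (r = 0.991), Echdc3, Fggy and Kif4, of which Cenpe and Kif4 encode mitotic kinesins. For E2f1 they were Pygl (r = 0.984), Nqo2, Arhgap11a, Slc25a33 and Cnnm2, and for Cdkn2a Psmg4 (r = 0.940), Fer, Adm, Vps37a and Armcx6. Class sums of 1 library share its depth and background, and 9 points match many genes closely.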

How the data were processed

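Droplet RNA sequencing (10x 3' v3) was made of YFP-positive cells of early and macroscopic lesions, 1 library per stage. The authors deposited whole-number counts of UMIs for every gene and cell barcode, with no normalization, and per the file headers the matrices come from Cell Ranger 3.0.2. The genome build mm10 and Seurat 2.3.0 are listed in the submitters' processing notes without a role. The annotation used for counting and whether multi-mapped or opposite-strand reads were counted are not given in the sources used here. Positions are from GENCODE M21 (GRCm38, the assembly of mm10), matched by Ensembl identifier, and promoter windows are from RefSeq (GRCm38.p6).

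Barcodes of at least 1000 UMIs were given to the first gate they passed, in the order hepatocyte, duct, Kupffer, other macrophage, T cell. No doublet caller was run. Instead, barcodes passing 2 or more gates were counted, 115 early (96 of them Kupffer and other macrophage) and 5 macroscopic, and left out in an alternative. UMIs were summed per class, since a stage has 1 library, and no test was made. Intervals at 95% are exact Poisson for CPM, exact binomial conditional on the summed count for ratios, and Clopper-Pearson for shares. A count of 0 was set to 3 counts of the class total for a bound. A gene was measured with at least 10 CPM in 1 class and 20 UMIs in both. Expected shares at 1000 or 10000 UMIs are hypergeometric. The interval code was tested on simulated data. Python 3.11.15, numpy 2.4.6, scipy 1.17.1 and pandas 2.3.3 were used.

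The members, gene lists and gates were chosen with earlier results of these data known. Named were all 10 members, the 3 highest and 3 lowest measured genes of each pathway list by early hepatocyte to Kupffer ratio, and 5 genes most like Cdkn2a, Cdkn2c and E2f1. The leading genes of Cdkn2a-rich barcodes, Lyz2, Clec4f, Marco, Cdkn2b and single barcodes were chosen after their values were seen. Barcodes under 1000 UMIs, 601 early and 15 macroscopic, enter no comparison. Alternatives are described at the end.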

Additional observations from a re-analysis of the deposited data

Results flagged for a closer look

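Some transcripts of the members appeared in barcodes left out of the comparisons. The 601 early barcodes under 1000 UMIs, with 434754 UMIs in all, held 16 UMIs of E2f1, 13 of Cdkn2a, 10 of Rb1, 6 of Rbl2 and 4 of Ccne1, each above the 3 counts that a count of 0 allows. These barcodes were not gated, and no control library was analysed here.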

How the results depend on the processing

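Member log2 ratios of 6 comparisons (4 against early Kupffer-gated barcodes, macroscopic hepatocyte-gated over all other barcodes, and hepatocyte-gated barcodes between stages) were recomputed with other limits on depth, genes and mitochondrial share, other class definitions, equal weight per barcode and median-of-ratios scaling. Early hepatocyte- over duct-gated barcodes were not recomputed, and some alternatives apply to part of these comparisons. Of 444 recomputed ratios 400 stayed within the counting interval of the reported value and 41 moved out of it, while 3 that had been at least 2-fold changed sign. In all, the sign changed in 13. The alternatives with at least 3 cycling UMIs, 5000 to 30000 UMIs, immune barcodes as reference and without the barcode richest in the gene were chosen after seeing the data. For early hepatocyte- over Kupffer-gated barcodes, at least 3 cycling UMIs gave log2 ratios of -0.33 for E2f1, 0.060 for Cdkn2c and -1.18 for Cdkn2a, in place of 0.82, 2.66 and -2.26. Then 2 members were at least 2-fold higher and 1 lower (reported 5 and 2), as were 7 and 2 of the 35 E2F targets (reported 32 and 0). The share over all genes was taken for the reported settings only, so no count under an alternative has it beside it. Between 5000 and 30000 UMIs the Cdkn2c log2 ratio was 2.03. For macroscopic hepatocyte-gated over all other barcodes (reported 2 higher and 4 lower), equal weight per barcode and at least 3 cycling UMIs each gave 0 higher and 2 lower, and immune barcodes as reference gave 4 higher and 2 lower. Between 5000 and 30000 UMIs, and without the richest barcode, 2 were lower. Cdkn2a turned to 1.28 against immune barcodes and 1.499 between 5000 and 30000 UMIs, and Cdkn1c to 0.46 against immune barcodes. The immune reference leaves out the barcodes in no gate that held all Cdkn2a and Cdkn1c UMIs outside the hepatocyte gate. Between 5000 and 30000 UMIs the hepatocyte-gated level of Cdkn2a also differed, at 29.1 CPM against 15.4 CPM. For hepatocyte-gated barcodes between stages, 0 members were at least 2-fold higher in place of 1 with barcodes of 1 gate only, without low-Malat1 barcodes and with at least 3 cycling UMIs. Where not stated, the cause was not tested. No paired analysis was possible because each stage has 1 library, which also leaves no replicate to leave out.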

Other observations

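Cdkn1a (p21), an inhibitor of cyclin-CDK complexes and a p53 target, was higher in cycling barcodes of the 3 early classes in which the split was made (Kupffer, duct and hepatocyte). It had 158 CPM (126 to 196) in Kupffer-gated barcodes with at least 3 cycling UMIs and 27.5 CPM (23.2 to 32.2) in those with 0, which is 5.76-fold (4.36 to 7.57), and 3.59-fold (2.55 to 5.02) within 5000 to 30000 UMIs. In duct-gated barcodes Cdkn1a had 373 CPM in the 10 cycling ones and 38.8 CPM in the other 81, 9.61-fold (6.55 to 14.2). In early hepatocyte-gated barcodes it had 309 CPM in the 45 cycling ones and 106 CPM in the other 22, 2.92-fold (1.85 to 4.85). Cycling hepatocyte-gated barcodes stood 1.95-fold (1.53 to 2.52) above cycling Kupffer-gated ones, whereas Cdkn2c there had a ratio of 1.04. Cdkn1a was described after its values were seen.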
